A study of Homo sapiens with 8 samples.

Results

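The 36 genes examined here encode the core machinery of autophagy and of the lysosome, and they were chosen by name, as 6 cargo receptors, 4 ATG8 proteins, 5 subunits of the ULK kinase complex, 4 of the class III PI3-kinase complex, 4 proteins of the WIPI, ATG2 and ATG9 group, 7 enzymes and partners of the ATG8 and ATG12 conjugation systems and 6 lysosomal genes, among them the regulator TFEB. They were 36 of 19775 genes on the array, and 35 of 12672 genes with enough signal to be tested. The exception was ULK2, whose brightest of 4 probe sets had signals of 5.1 to 10.2, below the median of each array. Expression was measured in A375 cells, a human melanoma line, with 8 HG-U133 Plus2 arrays split evenly over 4 groups of 2. The groups are named here after what sets them apart. The knockdown cells carried the hairpin against HSF1 (shHSF1) induced with Doxycycline and had 100 nM of the HSP90 inhibitor NVP-HSP990 for 3 h. The NVP-HSP990 cells were the same shHSF1 line with the same inhibitor exposure and no Doxycycline. The Dox control cells carried a non-targeting hairpin (shNTC) and had Doxycycline and 0.1% DMSO for 3 h, and the DMSO control cells were that line with DMSO and no Doxycycline. Doxycycline was given at 100 ng/ml over 3 days of culture. The labels' growth notes give it for all lines, and the split into arrays with and without it rests on the sample titles. Both lines are stable transductants, and no group had NVP-HSP990 in shNTC cells or DMSO in shHSF1 cells, so that inhibitor and line cannot be told apart. The titles mark the second array of each group as a repeat and name no separate culture, so that the p-values measure the spread between these arrays, which may be technical.

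Macroautophagy encloses cytoplasm in a double membrane that then fuses with the lysosome. The ULK kinase complex starts the process, the class III PI3-kinase complex around BECN1 and PIK3C3 marks the membrane, WIPI proteins read that mark, ATG2 and ATG9 supply lipid, and the conjugation enzymes attach ATG8 proteins such as LC3 to the membrane, where cargo receptors such as p62 (SQSTM1) dock with ubiquitinated protein. Autophagy clears aggregated protein beside the proteasome and the heat shock chaperones. HSF1 is the transcription factor that induces those chaperones when HSP90 is inhibited, and TFEB induces lysosomal and autophagy genes through the CLEAR element, whose core is CACGTG.

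The promoters of 3 members are printed, that of GABARAPL1 because of its call below and those of LAMP1 and ATG3 because they carry motifs the members were searched for. RefSeq promoters of GRCh38.p14, from 250 bases before to 50 after the start, were matched for 32 of the 36 members, and CTSB, LAMP2, RB1CC1 and UVRAG had none in the table. The first sequence belongs to GABARAPL1, the single member that passed the test below, at chr12:10212627-10212876 on the + strand, with a cAMP response element in capitals that was picked out after the sequence was read. The second belongs to LAMP1, a lysosomal membrane protein, at chr13:113297029-113297228 on the + strand, with its CACGTG matches in capitals. The third belongs to ATG3, the E2-like enzyme of ATG8 conjugation, at chr3:112561967-112562052 on the - strand, with a heat shock element core and a CACGTG in capitals. All are given 5′ to 3′ in the direction of the gene.
GABARAPL1: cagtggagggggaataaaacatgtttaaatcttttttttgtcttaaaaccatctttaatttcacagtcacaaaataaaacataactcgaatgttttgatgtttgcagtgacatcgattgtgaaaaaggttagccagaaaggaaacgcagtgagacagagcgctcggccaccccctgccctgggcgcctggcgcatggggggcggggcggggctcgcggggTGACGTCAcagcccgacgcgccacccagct
LAMP1: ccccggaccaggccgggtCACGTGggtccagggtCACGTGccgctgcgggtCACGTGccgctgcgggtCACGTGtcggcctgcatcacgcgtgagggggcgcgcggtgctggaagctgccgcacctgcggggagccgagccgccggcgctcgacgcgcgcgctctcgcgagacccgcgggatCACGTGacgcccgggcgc
ATG3: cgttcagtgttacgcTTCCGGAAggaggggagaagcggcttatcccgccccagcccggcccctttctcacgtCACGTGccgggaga

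The heat shock element core was searched on both strands as GAANNTTC or TTCNNGAA, and 3 of the 32 members had it (ATG3, GABARAPL2 and TAX1BP1), or 9.38%, beside 13.5% of 35116 promoters in the table. CACGTG was found in 4 members (ATG14, ATG3, CTSD and LAMP1), or 12.5%, beside 7.26%. Its longer form TCACGTGA, which contains it, was found in 2 members (ATG3 and LAMP1), or 6.25%, beside 0.98%. LAMP1 alone held 6 copies of CACGTG, 5 of them in the stretch printed. The antioxidant response element core TGACNNNGC was found in 6 members (ATG101, CALCOCO2, CTSD, CTSL, LAMP1 and MAP1LC3B), or 18.8%, beside 13.3%. The GABARAPL1 window had none of these letters and held TGACGTCA, which 1 member and 1.85% of all promoters had. A match says only that the letters are there.

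HSF1, the target of the hairpin, had MAS5 signals of 5.5 and 7.3 in knockdown cells, below the array medians, against 99 and 42.5 in NVP-HSP990 cells. It had 36.6 and 47.9 in Dox control cells, against 38.2 and 47.3 in DMSO control cells. With the knockdown it fell by 1.87 on the log2 scale (limma, adjusted p = 0.00754, standard error 0.29). The arrays correlated with each other at r of 0.980 to 0.995, and their median signals were 10.6 to 14.2. One array stood apart by the ACTB 3-prime to 5-prime ratio, the second of Dox control cells, at 46.8, against 4.73 to 18.9 on the other 7. Its GAPDH ratio was 3.13, against 1.34 to 2.73 on the other 7. The ACTB ratios also varied within the knockdown comparison, 10.3 and 5.63 in knockdown cells and 18.9 and 8.27 in NVP-HSP990 cells. Of the melanocyte lineage markers, MITF, SOX10, S100B and MC1R passed the filter, whereas PMEL, MLANA, TYR and TYRP1 did not. The summed signal of the list was 1992 to 2450 in knockdown cells, against 2665 to 2742 in NVP-HSP990 cells. It was 2096 to 2828 in Dox control cells, which overlaps the knockdown cells, and 2352 to 2795 in DMSO control cells. The fibroblast list summed to 900.0 to 946.1 in knockdown cells, against 666.4 to 667.9 in NVP-HSP990 cells, with 5 of its 8 markers passing the filter and COL1A2, COL3A1 and THY1 not. Of those 5, LUM was called with the knockdown, at 0.71 (limma, adjusted p = 0.0385). Its signals of 756.3 and 708.2 in knockdown cells, against 450.9 and 429.7 in NVP-HSP990 cells, made up most of the sum. Of the 5, 3 had negative changes, COL1A1 at -0.38 among them, with a median of -0.15. The hepatocyte, colon epithelium and macrophage lists summed to at most 138.4, 120.7 and 158.7 on any array. The arrays measure bulk RNA of a single cultured line, in which a change in every cell and a change in some cells cannot be told apart. The part of these shifts in the results below was not tested.

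With HSF1 knockdown under NVP-HSP990, no call was made among the 35 members, each taken by its brightest probe set. Of all 12672 genes, 2.84% were called (126 higher and 234 lower, limma, adjusted p under 0.05), and of the members 0 were. An unadjusted p under 0.05 was reached by 6 of the 35 members, beside 1943 of all 12672 genes. GABARAPL1 had the largest positive log2 change, 0.70, and ATG13 the largest negative one, -0.62. The members' log2 changes were positive in 13 and negative in 22, with a median of -0.06, beside 0.0015 over all genes. For 32 of the 35 the 95% interval of the log2 change lay within 1 in either direction, a 2-fold change, and the 3 that reached past it were ATG13, ATG16L1 and GABARAPL1. For 18 the interval lay within 0.58, or 1.49-fold. All log2 changes are of the signal plus 16, which understates changes of dim genes. The 2 arrays of each group did not overlap for 14 members, beside 43.3% of all genes. Of those, 2 members had a log2 change of at least 0.58 in size, GABARAPL1 and ATG13, beside 8.63% of all genes.

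NVP-HSP990 cells, compared with DMSO control cells, also left the members without a call. Of all genes 0.221% were called (25 higher and 3 lower), and of the members 0. An unadjusted p under 0.05 (limma) was reached by 3 of the 35 members (TFEB, CALCOCO2 and RB1CC1), beside 628 of all 12672 genes. The other tested probe sets of CALCOCO2 had changes of 0.05 and 0.04, and that of RB1CC1 -0.03. TFEB passed the filter mainly through arrays with the inhibitor, as given below. The members' log2 changes were positive in 26 and negative in 9, with a median of 0.09, beside 0.0096 over all genes. All 35 intervals lay within a 2-fold change, and 16 within 1.49-fold. The arrays did not overlap for 15 members, beside 33.2% of all genes, and 0 members had in addition a log2 change of at least 0.58, beside 2.26% of all genes. Doxycycline in the control line (Dox control against DMSO control cells) gave 0% called, with 306 of all genes and 0 members at an unadjusted p under 0.05, and the members' changes ran over -0.28 to 0.32. The test of the knockdown effect minus the Doxycycline effect passed for none of the members (0 called, beside 0.789% of all genes). With it, 1 member had an unadjusted p under 0.05, beside 1337 of all 12672 genes. A p that misses the threshold does not show that values were alike.

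Knockdown together with NVP-HSP990, set against Dox control cells, which also differ in the line, gave the members' 1 call, GABARAPL1, or 1 of 35, beside 5.83% of all genes (360 higher and 379 lower). The members' log2 changes were positive in 18 and negative in 17, with a median of 0.0014, beside 0.014 over all genes, and 13 members did not overlap between the arrays, beside 44.5% of all genes. The plot of changes by role shows each member with its interval in the 3 comparisons. These comparisons share arrays, so that they are not independent of each other.

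**Figure D1:**
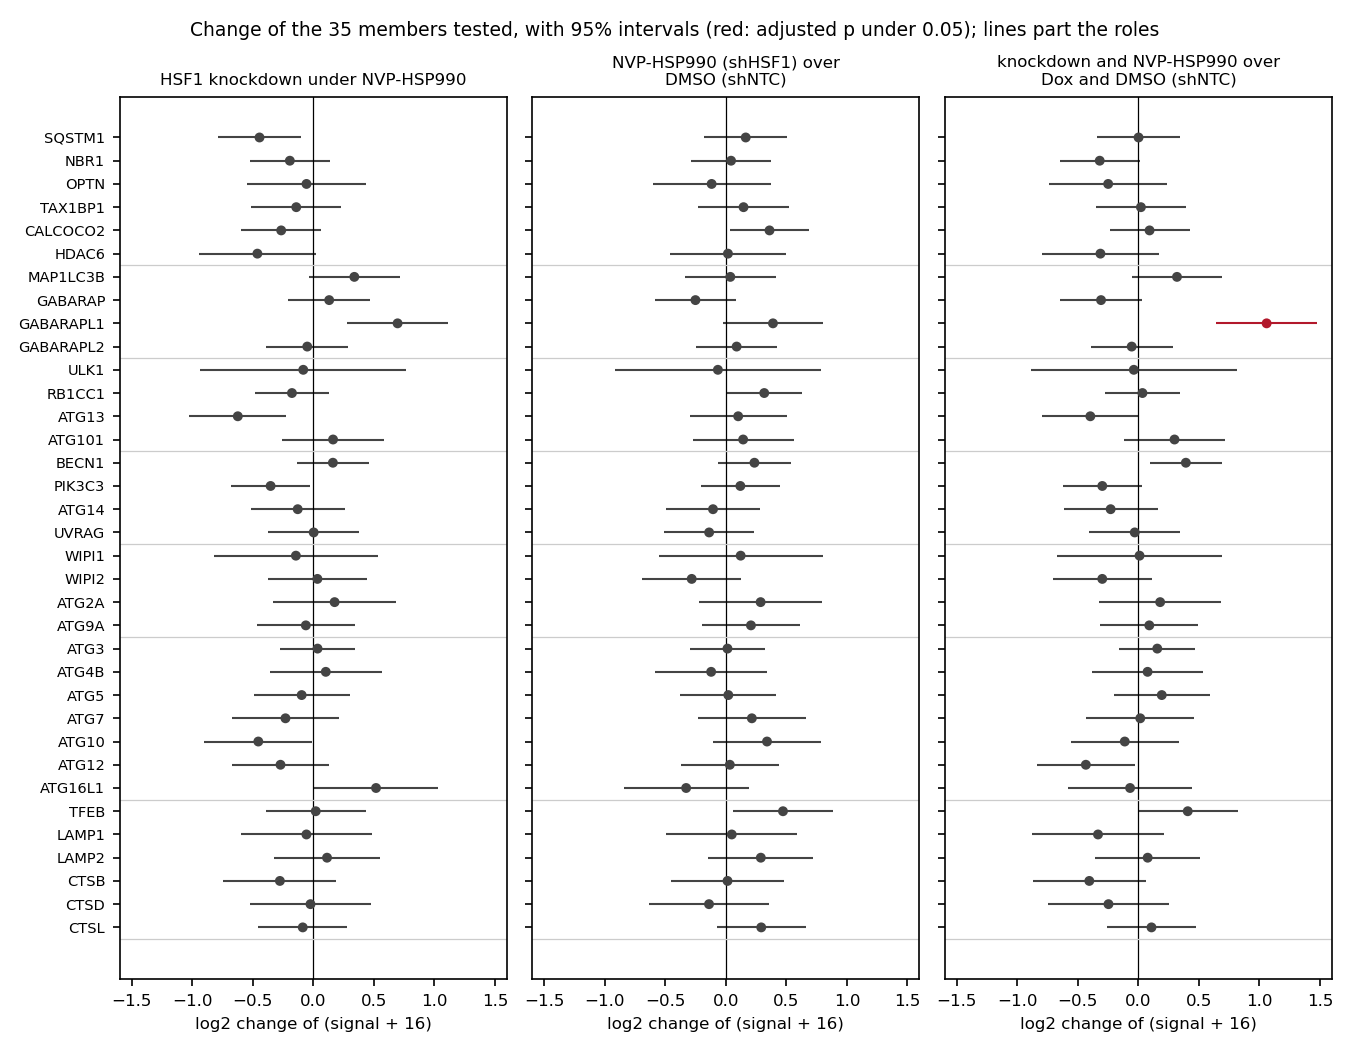
Log2 change of (signal + 16) on the horizontal axis for the 35 members tested, one per row and parted by role, with 95% intervals from limma, for the knockdown (left), NVP-HSP990 (middle) and both together (right). The single interval in red is GABARAPL1 at 1.06 in the right panel, and 32 of the 35 intervals in the left panel lie within 1 of 0.

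GABARAPL1, an ATG8 protein of the GABARAP branch that is conjugated to autophagosome membranes, had signals of 756.8 and 570.6 in knockdown cells, against 437.3 and 365.1 in NVP-HSP990 cells. In Dox control cells it had 340.8 and 276.4, against 311.3 and 291.8 in DMSO control cells. The 2 arrays of knockdown cells were above the other 6, and those of NVP-HSP990 cells were above all 4 of shNTC cells. In knockdown cells it rose 2.08-fold over Dox control cells, 1.06 on the log2 scale (limma, adjusted p = 0.00968, standard error 0.188, 2 arrays against 2). The change was 0.70 with the knockdown under NVP-HSP990 (standard error 0.188, adjusted p = 0.0836, or 0.86 with adjusted p = 0.0378 for the mean of all probe sets), 0.39 with NVP-HSP990 (adjusted p = 1.00) and 0.03 with Doxycycline. The knockdown effect minus the Doxycycline effect was 0.67, with an adjusted p of 0.381. The call was lost without the first array of knockdown cells (0.86, adjusted p = 0.0595), and without the second array of Dox control cells (0.92, adjusted p = 0.0769), which is the array with the ACTB ratio of 46.8.

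A second probe set of GABARAPL1, 208868_s_at, had signals of 426.9 and 764.7 in knockdown cells, against 212.6 and 354.6 in NVP-HSP990 cells. It had 292.9 and 198.6 in Dox control cells, against 220.7 and 216.1 in DMSO control cells. The direction was the same as that of the brightest probe set, 208869_s_at, in the comparison that was called, 1.19 on the log2 scale, although this probe set on its own had an adjusted p of 0.0617 over 24631 probe sets. The plot of single probe sets shows its 2 arrays of knockdown cells farther apart than those of 208869_s_at.

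**Figure D2:**
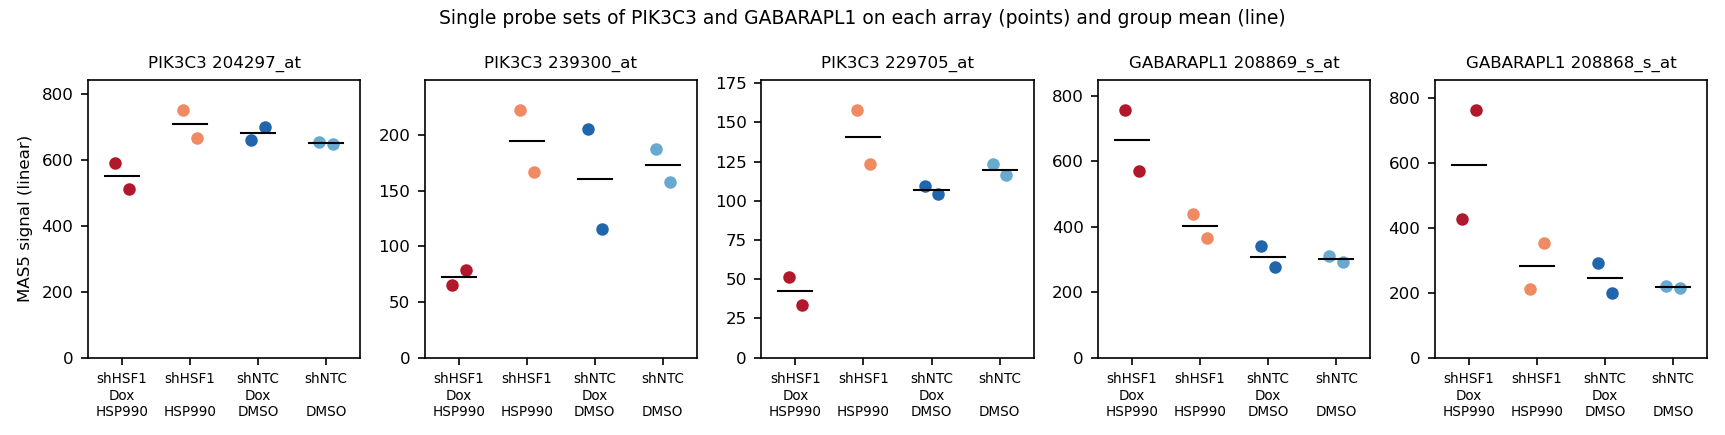
Linear MAS5 signal on each array (points) with the group mean (line) for 3 probe sets of PIK3C3 and 2 of GABARAPL1, with the 4 groups along the horizontal axis and knockdown cells at the left. PIK3C3 229705_at was 51.2 and 33.9 in that group and 158 and 123.5 in the next, whereas 204297_at was 593 and 513 beside 753.4 and 667.5.

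Of the other ATG8 proteins, MAP1LC3B (LC3B, the usual marker of autophagosomes) had signals of 1674 and 1729.1 in knockdown cells, against 1299.3 and 1386.6 in NVP-HSP990 cells. In Dox control cells it had 1587.1 and 1166.3, against 1290.7 and 1325.7 in DMSO control cells. The knockdown arrays were above those of NVP-HSP990 cells, but the log2 change of 0.34 (95% interval -0.04 to 0.71, adjusted p = 0.384) did not pass. Its other probe set, 208785_s_at, had -0.10. With NVP-HSP990 the MAP1LC3B change was 0.04 by the brightest probe set and 0.41 by 208785_s_at (limma, unadjusted p = 0.0354), which was not called. Such a p under 0.05 was reached by 4 of 83 member probe sets, beside 1096 of all 24631. GABARAP and GABARAPL2, the remaining members of the family, had knockdown changes of 0.13 and -0.05. The ATG8 changes with Doxycycline were 0.03 to 0.19.

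The cargo receptors bind both ubiquitin and ATG8 proteins and bring cargo to the autophagosome. The log2 changes with the knockdown, each from the brightest probe set, were negative for all 6, from -0.46 to -0.06 with a median of -0.23, and 0 were called. SQSTM1 (p62) had signals of 649.9 and 610.3 in knockdown cells, against 950.3 and 784 in NVP-HSP990 cells. In Dox control cells it had 613 and 645.8, against 826.5 and 715.1 in DMSO control cells. By this brightest probe set, 201471_s_at, the arrays with Doxycycline were below those without it in both lines, and did not overlap with them. The knockdown change was -0.45 (95% interval -0.79 to -0.10, adjusted p = 0.186) and the Doxycycline change -0.28 in shNTC cells, and the difference of the 2 was -0.16 (adjusted p = 0.879). Against Dox control cells the change was 0.0014. The probe sets 213112_s_at, 239004_at, 242568_s_at and 244804_at had Doxycycline changes in shNTC cells of -0.29, -0.01, 0.13 and 0.28. Against Dox control cells they had -0.22, -0.33, -0.14 and -0.26, and none of these was called. All 5 probe sets of SQSTM1 had a negative knockdown change, from -0.45 to -0.06, and so had both of OPTN, whereas CALCOCO2, HDAC6, TAX1BP1 and NBR1 each had a probe set with a positive one, at most 0.09, 0.04, 0.09 and 0.01. Of the SQSTM1 probe sets, 239004_at, 242568_s_at and 244804_at were dim, at most 30.1 beside array medians of 10.6 to 14.2. Those with the positive changes given for CALCOCO2, HDAC6 and NBR1 were likewise at most 30.4. A brighter probe set of CALCOCO2, 235076_at, with signals of 78.2 to 145.6, also had a positive change, 0.07.

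HDAC6, a deacetylase that carries ubiquitinated protein to aggresomes, had a knockdown change of -0.46 (adjusted p = 0.347). CALCOCO2 (NDP52), NBR1, TAX1BP1 and OPTN had -0.27 to -0.06. With NVP-HSP990 5 of the 6 receptors had positive changes, with CALCOCO2 at 0.36 the largest (adjusted p = 0.942). The plot of signals by array shows the brightest SQSTM1 probe set, lower on the Doxycycline arrays of both lines, beside ATG13 and GABARAPL1.

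**Figure D3:**
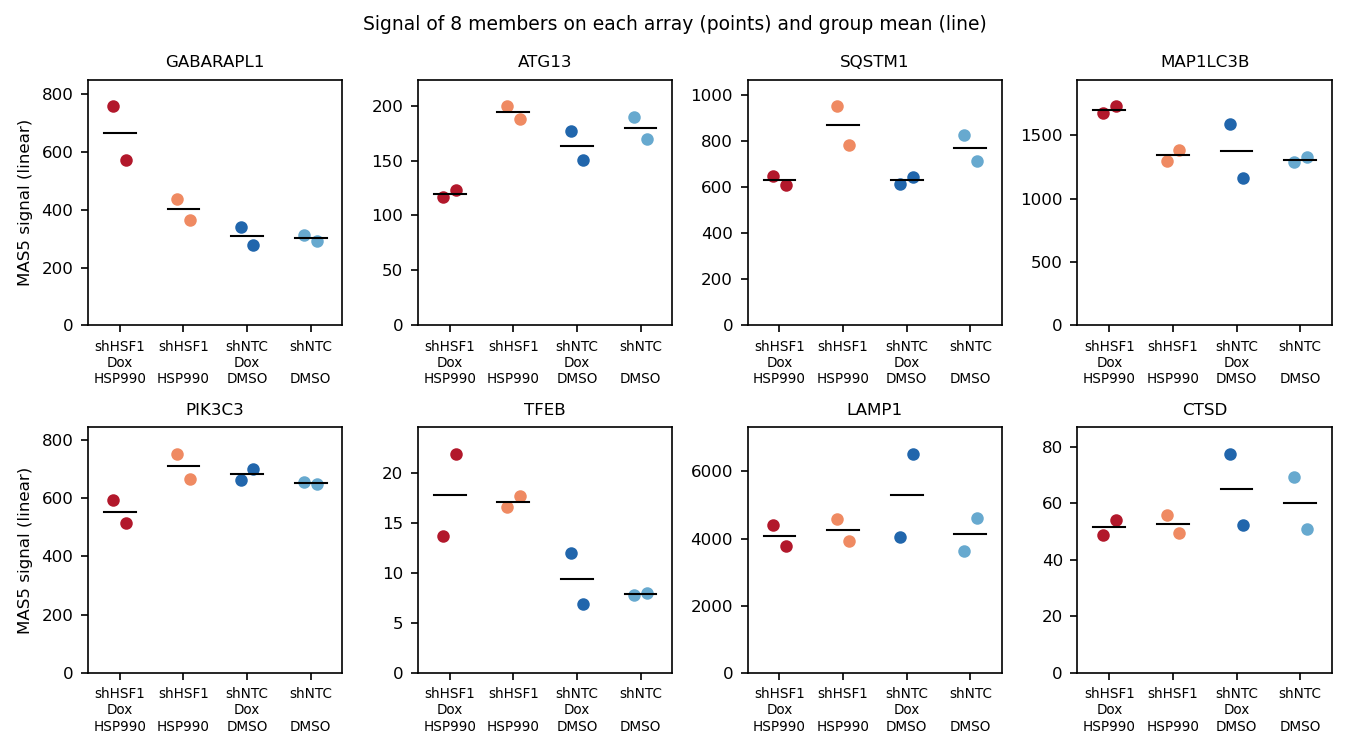
Linear MAS5 signal of 8 members on each array (points) with the group mean (line), with the 4 groups along the horizontal axis and knockdown cells at the left. GABARAPL1 is highest in that group (756.8 and 570.6) and ATG13 lowest (116.7 and 123.3), and TFEB lies at 6.9 to 22, near the array medians.

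ATG13, the adaptor that holds the ULK kinase complex together, had signals of 116.7 and 123.3 in knockdown cells, against 199.3 and 188.1 in NVP-HSP990 cells. In Dox control cells it had 177 and 150.1, against 190 and 169.3 in DMSO control cells. The knockdown arrays were below the other 6. The change with the knockdown was -0.62 (95% interval -1.02 to -0.22, unadjusted p = 0.00579, adjusted p = 0.105), and did not pass. It was -0.40 against Dox control cells (adjusted p = 0.26), -0.13 with Doxycycline and 0.10 with NVP-HSP990. The other 2 probe sets of ATG13, 203363_s_at and 209021_x_at, had smaller knockdown changes, -0.08 and -0.22. Of the other ULK subunits, ULK1 (the kinase), RB1CC1 (the scaffold FIP200) and ATG101 had -0.08, -0.18 and 0.16.

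In the class III PI3-kinase complex, PIK3C3 (VPS34, the lipid kinase) had a probe set 204297_at with the highest signal, 593 and 513 in knockdown cells, against 753.4 and 667.5 in NVP-HSP990 cells. In Dox control cells this probe set had 662.6 and 702, against 654.1 and 648.9 in DMSO control cells. The knockdown change was -0.35 (adjusted p = 0.283). PIK3C3 has 7 probe sets, 4 of them tested, and 2 dimmer ones were looked at after their values were seen. The fourth one tested, 232086_at, had signals of 13.6 to 30.9 and a knockdown change of -0.03 (adjusted p = 0.974). Probe set 229705_at had 51.2 and 33.9 in the knockdown cells, against 158 and 123.5 in NVP-HSP990 cells, and 109.7 and 104.2 in Dox control cells, against 123.2 and 116.4 in DMSO control cells. Probe set 239300_at had 65.4 and 78.6 in knockdown cells, against 222.5 and 166.9 in NVP-HSP990 cells, and 205.5 and 115.2 in Dox control cells, against 187.7 and 157.7 in DMSO control cells.

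Tested singly over 24631 probe sets, 229705_at fell with the knockdown by 1.43 on the log2 scale (adjusted p = 0.00908, standard error 0.213) and 239300_at by 1.25 (adjusted p = 0.0431, standard error 0.262), beside 1.88% of probe sets called in that comparison, and of 83 member probe sets these 2 were called. The call of 229705_at was lost without the second array of knockdown cells (-1.21, adjusted p = 0.0826) and without the first of NVP-HSP990 cells (-1.27, adjusted p = 0.085). The call of 239300_at was lost when any 1 array of 6 was left out, all but those of Dox control cells (-1.44 to -1.06). It was also lost with 64 added (-0.92, adjusted p = 0.0551), with no filter (0.0945) and with only the arrays compared (0.0724). With only the arrays compared, the knockdown call of 229705_at was lost too (adjusted p = 0.0667). With knockdown and NVP-HSP990 together 229705_at changed by -1.09 (adjusted p = 0.0231, lost without the second array of knockdown cells, -0.87 with adjusted p = 0.161, or any 1 array of the control line, adjusted p 0.0533 to 0.0723), and 208869_s_at of GABARAPL1 by 1.06 (adjusted p = 0.0152), beside 3.98% of probe sets. NVP-HSP990 alone called 0.134% of probe sets and the interaction 0.463%, and of the member probe sets 0 in each. What 229705_at and 239300_at of PIK3C3 measure that 204297_at and 232086_at do not was not tested. Over the 23 members with several probe sets tested, the knockdown changes had 1 sign in 9, and the other 12 members had 1 probe set tested.

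BECN1 (Beclin 1, a scaffold subunit) had a knockdown change of 0.16 and of 0.39 with knockdown and NVP-HSP990 (adjusted p = 0.132), where its arrays of 1221.3 and 1217.7 were above the 920.2 and 930.5 of Dox control cells. ATG14 and UVRAG, which define the subtypes of this complex, had knockdown changes of -0.13 and 0.0024. In the WIPI, ATG2 and ATG9 group, WIPI1, WIPI2, ATG2A and ATG9A had knockdown changes of -0.14 to 0.18, a median of -0.01 and 0 calls, and NVP-HSP990 changes of -0.28 to 0.29.

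In the conjugation systems the knockdown changes were negative in 4 and positive in 3 of 7 members. ATG10, the E2-like enzyme that conjugates ATG12 to ATG5, had -0.46 (adjusted p = 0.316), and ATG16L1, the partner of that conjugate, had 0.52 (adjusted p = 0.323). ATG12 had -0.27 with the knockdown and -0.43 with knockdown and NVP-HSP990 (adjusted p = 0.22). ATG3, ATG4B, ATG5 and ATG7 had knockdown changes between -0.23 and 0.10. All these are from the brightest probe sets, and the other tested ones differed in places. Their knockdown changes were 0.61, 0.45 and -0.18 for ATG7, -0.50 and -0.05 for ATG4B, and -0.45 and 0.12 for ATG12. They were -0.06 and 0.06 for ATG10, -0.19 and 0.12 for ATG5 and 0.21 for ATG3, and none of these was called. The 7 members' NVP-HSP990 changes were -0.33 to 0.34, and 0 were called.

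Of the lysosomal members, TFEB had signals of 13.7 and 22 in knockdown cells, against 16.6 and 17.7 in NVP-HSP990 cells. It had 12 and 6.9 in Dox control cells, against 7.8 and 8 in DMSO control cells. These lie near the array medians of 10.6 to 14.2. On the DMSO control arrays TFEB was below the medians (12 and 11). It passed the filter through the arrays with NVP-HSP990 and the first of Dox control cells. Its NVP-HSP990 change was 0.47 (95% interval 0.06 to 0.89, adjusted p = 0.892). TFEB was thus admitted to the test through the group where it was high, so that the interval is no support for a rise. The knockdown change was 0.02.

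LAMP1 had 4390.4 and 3782.9 in knockdown cells, against 4568.6 and 3937.6 in NVP-HSP990 cells. It had 4044.3 and 6532 in Dox control cells, against 3636.3 and 4624.8 in DMSO control cells, so that the groups overlapped throughout. CTSD, the aspartic protease of the lysosome, had 48.9 and 54.2 in knockdown cells, against 55.9 and 49.5 in NVP-HSP990 cells, and 77.7 and 52.5 in Dox control cells, against 69.4 and 50.9 in DMSO control cells. Their knockdown changes were -0.06 and -0.02. The cysteine proteases CTSB and CTSL and the membrane protein LAMP2 had knockdown changes of -0.28, -0.09 and 0.11. With Doxycycline all 6 lysosomal members, by their brightest probe sets, had positive changes, 0.08 to 0.32, none of them called. A dimmer probe set of LAMP2 had -0.08 and a dimmer one of CTSB -0.09, while the other tested probe sets of these genes had positive changes. LAMP1 and CTSB were highest on the second array of Dox control cells (6532 and 3171), the array with the ACTB ratio of 46.8.

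The wider pathway was covered by 5 further lists. Of 34 other autophagy genes and 33 other lysosomal genes tested, 0 were called in any of the 5 comparisons. At most 1 of the autophagy genes and 5 of the lysosomal genes had an unadjusted p under 0.05 in a comparison. Those were the knockdown, and knockdown with NVP-HSP990, where 1943 and 2472 of all 12672 genes had such a p. Called genes lay in the chaperone-assisted branch, the proton pump and the control of mTORC1, and the plot of called genes shows 6 of them. The chaperone-assisted list had 2 of 7 tested genes called lower with the knockdown, beside 2.84% of all genes called in either direction, with a list median of -0.36. BAG3, the co-chaperone that hands misfolded protein to p62 and autophagy, had 391.2 and 368.1 in knockdown cells, against 2510.3 and 2699.5 in NVP-HSP990 cells, and 601.1 and 794.7 in Dox control cells, against 649.1 and 718.7 in DMSO control cells. It fell by 2.73 with the knockdown (adjusted p = 5.56e-05, standard error 0.165) and rose by 1.91 with NVP-HSP990 (adjusted p = 0.00121), and its knockdown and Doxycycline effects differed by -2.74 (adjusted p = 0.00149). With both it fell by 0.84 against Dox control cells (adjusted p = 0.0161), a call that was lost without either array of knockdown cells (adjusted p 0.0533 and 0.101) or the second array of Dox control cells (0.0842).

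HSPB8, the small heat shock protein that partners BAG3, had 39 and 54.7 in knockdown cells, against 98.1 and 125.8 in NVP-HSP990 cells. It had 42.5 and 28.6 in Dox control cells, against 34.3 and 34.2 in DMSO control cells. It fell by 1.03 with the knockdown (adjusted p = 0.0406), a call that was lost without any 1 of 6 arrays, all but those of Dox control cells (adjusted p 0.083 to 0.184), with only the arrays compared (0.125), with no filter (0.103) and with 1 added (0.0572). Its NVP-HSP990 change was 1.34 (adjusted p = 0.055), which passed under 9 of 20 alternatives, among them the mean of all probe sets (1.21, adjusted p = 0.012) and only the arrays compared (0.0208).

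**Figure D4:**
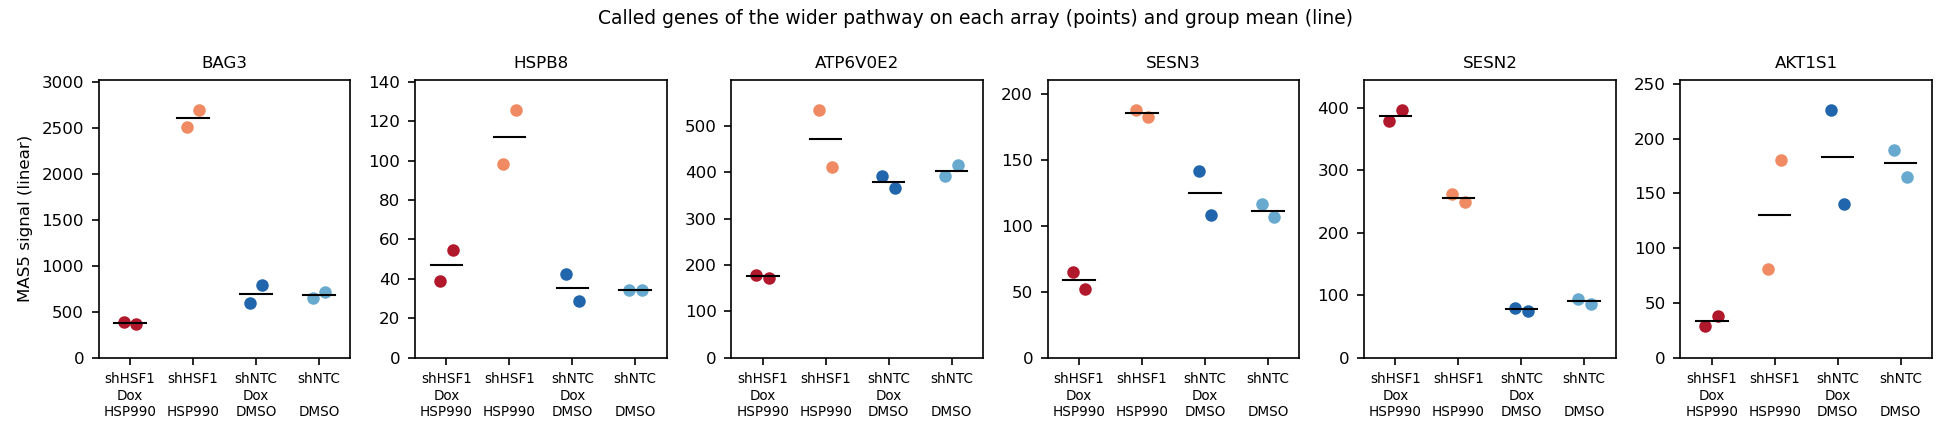
Linear MAS5 signal of 6 called genes outside the 36 members on each array (points) with the group mean (line), with the 4 groups along the horizontal axis and knockdown cells at the left. BAG3 is highest in NVP-HSP990 cells (2510.3 and 2699.5), and SESN2 is highest in the leftmost group (378.4 and 397.1).

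Of 16 subunits of the lysosomal proton pump, 2 were called lower with the knockdown, beside the 2.84% of all genes. When probe sets were averaged, 1 was. ATP6V0E2 had 178.8 and 172.4 in knockdown cells, against 535.4 and 411.1 in NVP-HSP990 cells, and 392.1 and 366.8 in Dox control cells, against 391.7 and 415.5 in DMSO control cells. It fell by 1.34 (adjusted p = 0.00294) and, with NVP-HSP990 and knockdown together, by 1.04 (adjusted p = 0.00662). ATP6V1C1 fell by 0.65 (adjusted p = 0.0429), but the mean of all its probe sets gave -0.15 and the call was lost without any 1 array (adjusted p 0.0523 to 0.231). The median over the 16 subunits was 0.09.

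In the mTORC1 and TFEB control list, 30 genes were tested and 2 were called lower with the knockdown, beside 2.84% of all genes. When probe sets were averaged, 0 were. SESN3, a stress-induced inhibitor of mTORC1, had 65.2 and 52.3 in knockdown cells, against 187.7 and 182.2 in NVP-HSP990 cells, and 141.4 and 108.3 in Dox control cells, against 116.1 and 106.4 in DMSO control cells. It fell by 1.43 (adjusted p = 0.00484), while the mean of all its probe sets gave -0.30 (adjusted p = 0.198). AKT1S1 (PRAS40, an mTORC1 inhibitor) had 28.8 and 37.7 in knockdown cells, against 80.7 and 180.7 in NVP-HSP990 cells, and 226.3 and 140.4 in Dox control cells, against 189.8 and 165.3 in DMSO control cells. With the knockdown AKT1S1 fell by 1.49 (adjusted p = 0.0401), a call that was lost without any 1 of 5 arrays (adjusted p 0.0678 to 0.15) and whose size was -0.98 without the second of NVP-HSP990 cells. It was also lost with the mean of all probe sets (-1.15, adjusted p = 0.104), with 64 added (-0.95, adjusted p = 0.0707), with no filter (0.09) and with only the arrays compared (0.131). SESN2, another sestrin, had 378.4 and 397.1 in knockdown cells, 261.8 and 249.1 in NVP-HSP990 cells, 80.1 and 74.8 in Dox control cells and 94.8 and 86.1 in DMSO control cells. It rose by 1.35 with NVP-HSP990 (adjusted p = 0.0113) and by 2.11 with knockdown and NVP-HSP990 over Dox control cells (adjusted p = 0.000231). The NVP-HSP990 call was lost without any 1 of the 4 arrays compared (adjusted p 0.0685 to 0.252). In the comparison of both treatments with Dox control cells, AKT1S1, SESN3 and FOXO1 fell by 1.99, 0.91 and 0.91, and 4 of the 30 genes were called in all, beside 5.83% of all genes. With the mean of all probe sets 1 of the 30 was called, and AKT1S1, SESN3 and FOXO1 were not, at -1.05 (adjusted p = 0.0988), -0.16 (adjusted p = 0.423) and -0.46 (adjusted p = 0.0564). The FOXO1 call was lost without any 1 of 5 arrays (adjusted p 0.0645 to 0.193), and the SESN3 call likewise (adjusted p 0.0526 to 0.171).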

How the data were processed

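RNA of A375 cells was amplified, biotin-labelled and hybridized to 8 HG-U133 Plus2 arrays, whose 4 groups of 2 were taken from the sample titles. The deposited intensities are MAS5 signals (version not given), which the authors left linear and scaled per array to a mean of 150 after 2 percent of probe sets were trimmed at each end. They were used without further normalization. The array number limits precision. Of 54675 probe sets, 41091 had a single gene symbol, 1801 several and 11721 none, and 62 were controls. A gene was represented by its single-symbol probe set of highest mean log2 signal and tested when it reached the array's own median on 2 or more of the 8 arrays. Log2(signal + 16) was fitted with limma 3.58.1 in R 4.3.3, in a means model over all 8 arrays with empirical Bayes variances and a trend (4 residual degrees of freedom, 6.36 prior), two-sided, and Benjamini-Hochberg adjusted over all 12672 genes (or 24631 probe sets). A call is an adjusted p under 0.05. Tested on simulated data for the knockdown comparison over 12672 genes, the steps called 52 of 100 genes with a log2 change of 1, 95 of 100 with a change of 2 and 4 of 12472 unchanged ones. The changed genes were drawn from brighter genes only, with independent normal noise. No smaller change was simulated, while the members' knockdown changes were at most 0.70 in size, so that recovery at those sizes and in dim genes is not known.

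The members, the 5 further lists (139 genes), the cell type markers, the tests and the naming rule were chosen with earlier results of these data known. The rule gives per array each called member, each member with a log2 change of at least 0.58 in the knockdown or NVP-HSP990 comparison whose arrays do not overlap, HSF1, and SQSTM1, MAP1LC3B, GABARAPL1, TFEB, LAMP1 and CTSD, the other members by role, and at most 4 called genes a list. The PIK3C3 probe sets and the cAMP response element were picked after their values were seen. Some genes of the lists are not reported here. Alternatives were 1 or 64 added, no or a stricter filter, median centring, quantile normalization, probe sets averaged or taken singly, no trend, only the arrays compared, a replicate block, the Student t-test and each array left out.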

Additional observations from a re-analysis of the deposited data

Results flagged for a closer look

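The change with Doxycycline in the shHSF1 line under NVP-HSP990 differed from that in the shNTC line under DMSO for 3 genes of the wider pathway, by the interaction term in limma, and for 0 of the 35 members tested. The difference was -2.744 on the log2 scale for BAG3 (adjusted p = 0.00149), -1.569 for SESN3 (adjusted p = 0.037) and -1.255 for ATP6V0E2 (adjusted p = 0.0461). The BAG3 call held with each array left out in turn. The SESN3 call was lost with the mean of all its probe sets (-0.401, adjusted p = 0.346), with no filter (adjusted p = 0.0751) and without any 1 of the 8 arrays (-1.74 to -1.399). The ATP6V0E2 call was lost without any 1 of 7, all but the second of NVP-HSP990 cells, and with each array left out its difference ran over -1.44 to -1.071. It was also lost with 64 added (adjusted p = 0.0591), no filter (0.0751), median centring (0.0661), single probe sets (0.0704) and no trend (0.0584).

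A probe set that the annotation gives to both GABARAPL1 and GABARAPL3, 211458_s_at, was left out of the tests. Its signals were 2668.4 and 2390.7 in knockdown cells, 2352.1 and 1733.6 in NVP-HSP990 cells, 1728.6 and 2251.2 in Dox control cells, and 1905.2 and 1873.4 in DMSO control cells. The difference between knockdown cells and Dox control cells was 0.354 on the log2 scale, smaller than the 1.06 and 1.19 of the probe sets given to GABARAPL1 alone, and was not tested.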

How the results depend on the processing

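The counts of members called stayed at 0 for NVP-HSP990, Doxycycline and the interaction under every alternative run. For the knockdown, 1 member was called with the mean of all probe sets (GABARAPL1), 1 with single probe sets (PIK3C3) and 2 with a replicate block (ATG13, adjusted p = 0.0494, and GABARAPL1, adjusted p = 0.0188), and 0 with the Student t-test and with each array left out. For knockdown with NVP-HSP990 it was 2 with single probe sets, 0 with the Student t-test and 0 to 2 with each array left out, CTSB being the second without the first array of Dox control cells. Other lysosomal genes had 0 to 1 call with the knockdown and 0 to 3 with knockdown and NVP-HSP990 over the alternatives. The members' medians moved by less than their replicate spread of 0.106. Over all genes, the knockdown count of 360 was 95 with only the arrays compared, 221 with no filter, 752 with the replicate block, 0 with the t-test and 123 to 380 with each array left out. For knockdown with NVP-HSP990, 739 became 450 with no filter, 1237 with the block, 0 with the t-test and 263 to 802 with each array left out, and for the interaction 100 became 59, 279 and 7 to 76. For NVP-HSP990, 28 became 16 with no filter, 44 with the block, 0 with the t-test and 5 to 30 with each array left out. Same-numbered arrays of 2 groups deviated together with r of 0.0156 to 0.685 (0.685 in the shHSF1 line, 0.464 in the shNTC line), and not every r was over 0.1, so that the numbers were not taken to pair the arrays, and the block gave the counts above.

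Some values changed sign. With the mean of all probe sets the knockdown change was -0.124 for TFEB and 0.0803 for LAMP1, the NVP-HSP990 change -0.00483 for ATG13 and -0.0354 for LAMP1, and the change with both treatments -0.189 for SQSTM1, which was -0.0513 with median centring. With each array left out, the knockdown change ran over -0.158 to 0.197 for TFEB, -0.164 to 0.0496 for LAMP1 and -0.0911 to 0.0434 for CTSD. The NVP-HSP990 change ran over -0.0096 to 0.0831 for MAP1LC3B, -0.124 to 0.221 for LAMP1, -0.316 to 0.0367 for CTSD, -0.998 to 0.0262 for AKT1S1, -0.0405 to 0.343 for 239300_at and -0.0361 to 0.661 for 208868_s_at. With both treatments it ran over -0.0429 to 0.0456 for SQSTM1 and -0.678 to 0.011 for LAMP1. The single probe sets of PIK3C3 and GABARAPL1 were put through the alternatives after their values had been seen. Having 2 arrays a group limits what could be called, and the cause of these shifts was not tested.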
